A study of Mus musculus with 21 samples.

Results

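The breakdown of the branched-chain amino acids leucine, isoleucine and valine was followed through 10 genes in 3T3-L1 adipocytes, a mouse line whose fibroblast-like preadipocytes become fat cells in culture. The genes are Bcat1, Bcat2, Bckdha, Bckdhb, Bckdk, Dbt, Ivd, Mccc1, Pccb and Aldh6a1. They were found by gene symbol in the platform annotation of the array, and each was read from the probe set with the highest mean over all 21 arrays among those that list that gene alone. They are 10 of the 18194 genes that have such a probe set. Testing required a level above 5.34 (log2), the median of the deposited values, on 3 or more arrays. Of the 10 genes, 9 passed this filter, and Bcat1 did not.

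All 7 groups hold 3T3-L1 adipocytes after 14 days of differentiation, with 3 arrays in each. The control (CTL) had no agent and is labelled 0 h. It is the only untreated group, with none at the later times. A change against control therefore cannot be told apart from a change with time in culture. In 3 groups the cells received 20 nM dexamethasone (Dex), a synthetic glucocorticoid, for 2 h, 24 h or 6 d before harvest. The other 3 received TNF-alpha (TNF), an inflammatory cytokine, for the same times, at a dose the labels do not give. The series asks which transcripts change early, midway and late while adipocytes become insulin resistant. The model is 1 cell line grown alone, so blood, immune and vascular cells of fat tissue are not part of it. The labels call the 3 arrays of a group biological replicates without saying what separated them, so p-values measure the spread between these arrays, which may be technical.

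The first step of the pathway is a reversible transamination by a branched-chain aminotransferase, cytosolic (Bcat1) or mitochondrial (Bcat2), which gives branched-chain keto acids. The mitochondrial branched-chain keto acid dehydrogenase complex then decarboxylates them irreversibly. Its E1 part is made of the Bckdha and Bckdhb subunits, Dbt is its E2 core, and the kinase Bckdk switches it off. The later enzymes are specific to 1 or a few of the amino acids: Ivd and Mccc1 serve leucine, Aldh6a1 serves valine, and Pccb, a subunit of propionyl-CoA carboxylase, serves the propionyl-CoA that isoleucine and valine yield. Mature adipocytes are known to use branched-chain amino acids as fuel and as carbon for fat synthesis.

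Below, a level is a deposited log2 value, and a change is a difference of mean log2 levels ± its standard error (SE), from 3 arrays against 3. Levels are compared only within a gene, since probe sets differ in brightness. Calls come from limma fitted to all 21 arrays, two-sided, with the Benjamini-Hochberg adjustment over 12156 genes and a threshold of 0.05. The array TNF 6 d replicate 2 stood apart from the other 20. Its values had a standard deviation (SD) of 2.04 against 2.44 to 2.51, and its 3' minus 5' probe set difference, a sign of shortened RNA, was 2.00 against 0.0210 to 0.777. Its correlation with the other arrays of its group was at most 0.844, against at least 0.978 within the other groups. Results are therefore given with it and without it, where TNF 6 d has 2 arrays. It also widens the spread that all comparisons share, so leaving it out changes calls in groups it does not belong to. Precision is limited by the 3 arrays a group.

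The labelled cell type was checked on markers. On the array were 10 of 12 adipocyte markers, none of them below 5.34 in mean level in any group, and the list's mean level in control was 13.14 to 13.18. Of 6 macrophage markers, 5 (Ptprc, Adgre1, Cd68, Lyz2 and Itgam) lay below 5.34 in control. The 9 preadipocyte and fibroblast markers on the array had a mean level of 10.28 to 10.51 in control, with Cd34 below 5.34, so RNA of such genes was present as well. In these bulk samples, fewer cells of a type and less RNA per cell cannot be told apart.

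The mitochondrial aminotransferase was the gene of the set that responded most to Dex and separated the agents most widely at 24 h. Bcat2 (probe set 1425764_a_at) had levels of 8.55, 8.54 and 8.31 on the control arrays. They were 9.96, 9.95 and 8.98 after 24 h of Dex and 9.87, 8.95 and 9.57 after 6 d, and they were 7.89, 7.996 and 7.14 after 24 h of TNF and 7.84, 7.37 and 7.72 after 6 d. All 6 late Dex arrays lay above, and all 6 late TNF arrays below, every control array. Among all genes tested, 16.8% lay wholly above control at 24 h of Dex and 16.5% at 6 d. Wholly below control were 18.9% at 24 h of TNF and 23.5% at 6 d. Bcat2 rose 2.23-fold at 24 h of Dex, by 1.16 ± 0.31 (adjusted p = 0.0410), and was 1.99-fold higher at 6 d (0.99 ± 0.31, adjusted p = 0.0588). Without TNF 6 d replicate 2, both were called, with adjusted p of 0.00790 and 0.0141. The call at 24 h held without Dex 24 h replicate 3 but was lost without control replicate 1, 2 or 3 (adjusted p = 0.105, 0.108 and 0.152) and without Dex 24 h replicate 1 or 2 (0.223 and 0.215).

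Under TNF, the change of Bcat2 was -0.80 ± 0.31 at 24 h (adjusted p = 0.146) and -0.83 ± 0.31 at 6 d (adjusted p = 0.0763). Only the change at 24 h was called without the outlying array (adjusted p = 0.0451), and the change at 6 d was then -0.69 ± 0.32 (adjusted p = 0.140). The difference between the agents, which spans both changes since they have opposite signs, was tested directly. Bcat2 was 3.88-fold higher under Dex than under TNF at 24 h (1.96 ± 0.31, adjusted p = 0.000188). At 6 d it was 3.53-fold higher (1.82 ± 0.31, adjusted p = 0.000403).

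The cytosolic aminotransferase Bcat1 was not well above the low end of the array. Its brightest of 3 probe sets (1455699_at) had a mean of 5.07 and lay above 5.34 on 2 of 21 arrays, control replicate 1 at 5.52 and TNF 2 h replicate 1 at 5.56. Its levels spanned 4.67 to 5.56 over all arrays, and in the order of the group means every group overlapped the next. Its arrays at 24 h and 6 d of TNF all lay below every control array. The dimmer probe sets 1430111_a_at and 1450871_a_at changed by -0.12 and 0.42 at 24 h of TNF. Bcat1 received no test, and no direction is drawn from it.

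**Figure D1:**
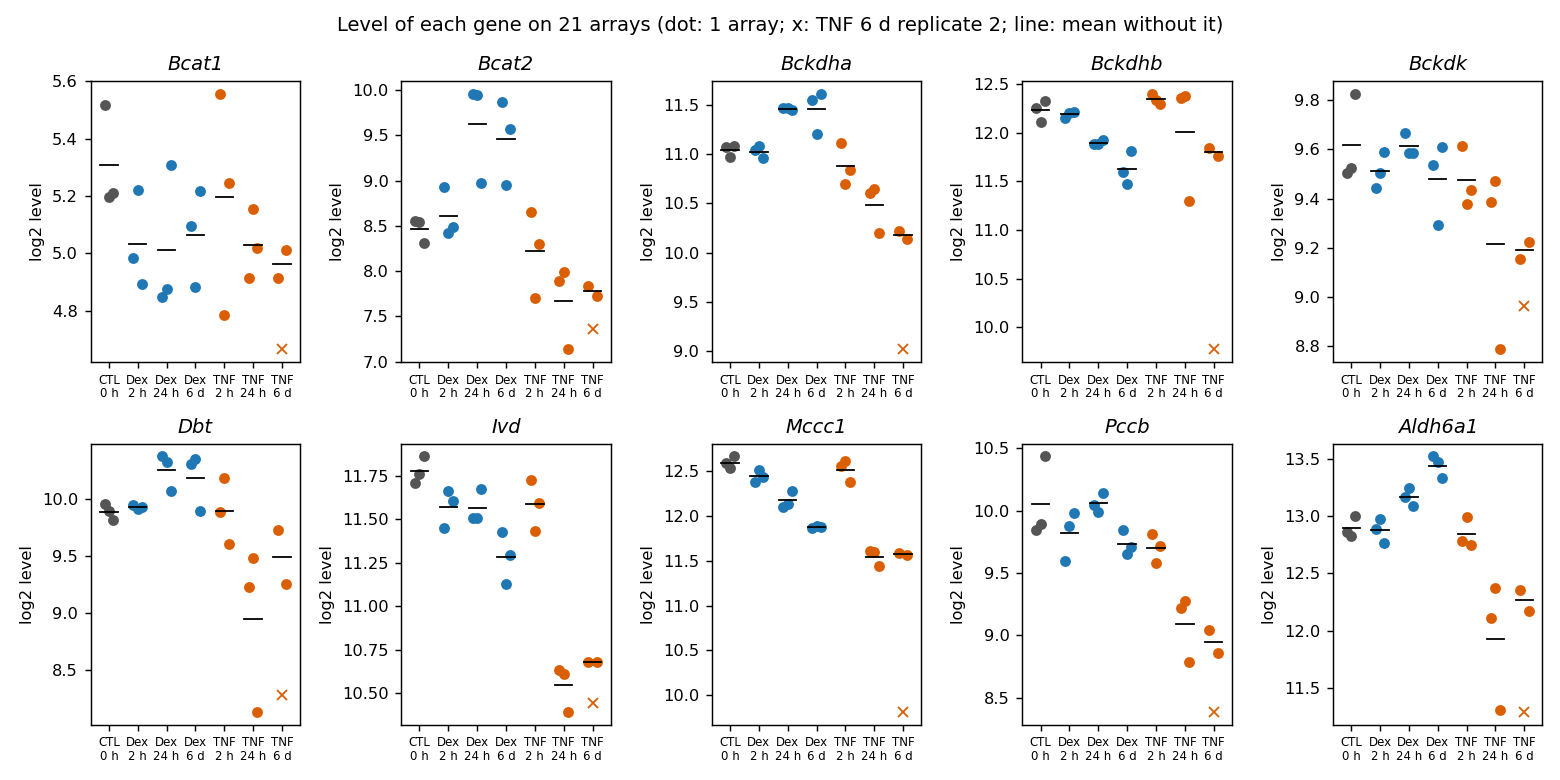
Levels of the 10 genes on the 21 arrays, as log2 values on the vertical axis of each panel, with the 7 groups along the horizontal axis, where CTL is control. Dots are single arrays, the cross is TNF 6 d replicate 2 and lines are group means without it. Bcat2 stands above control at 24 h and 6 d of Dex and below it at the same times of TNF, while Ivd and Mccc1 are lower under both agents by 6 d. Bcat1 stays between 4.67 and 5.56. The vertical axes do not start at 0 and differ between panels.

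At 24 h and 6 d of Dex, the 2 subunits of the E1 part of the dehydrogenase complex lay on opposite sides of control. With all arrays, neither was called there. Bckdha (1416647_at), the E1 alpha subunit, had levels of 11.08, 10.97 and 11.09 in control, 11.48, 11.47 and 11.46 after 24 h of Dex, and 11.56, 11.21 and 11.62 after 6 d of Dex. After TNF they were 10.60, 10.65 and 10.20 at 24 h and 10.22, 9.02 and 10.14 at 6 d. As for Bcat2, every late Dex array was above and every late TNF array below the control arrays. Bckdha fell 2.38-fold by 6 d of TNF, by 1.25 ± 0.24 (adjusted p = 0.00220), and by 0.86 ± 0.14 without the outlying array (adjusted p = 0.000148). At 24 h of TNF the change was -0.56 ± 0.24 (adjusted p = 0.197, and 0.00219 without that array). The higher level under Dex, 0.42 ± 0.24 at 24 h and 0.41 ± 0.24 at 6 d, was called only without that array (adjusted p = 0.0304 and 0.0208, against 0.617 and 0.427).

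Bckdhb (1427153_at), the E1 beta subunit, did not share this pattern. Its control levels were 12.25, 12.11 and 12.33. After Dex they were 11.88, 11.88 and 11.92 at 24 h and 11.60, 11.47 and 11.81 at 6 d, all below control. After TNF they were 12.35, 12.38 and 11.29 at 24 h, where 2 arrays lay above control and replicate 3 far below, and 11.85, 9.77 and 11.76 at 6 d, all below control. The change at 6 d of Dex was -0.60 ± 0.38 (adjusted p = 0.486), called without the outlying array (-0.60 ± 0.18, adjusted p = 0.0193). At 24 h of TNF it was -0.22 ± 0.38 (adjusted p = 0.865), and without TNF 24 h replicate 3 it was 0.13 (adjusted p = 0.979). Between the agents at 24 h, Bckdha was 1.98-fold higher under Dex (0.98 ± 0.24, adjusted p = 0.00807), while Bckdhb differed by -0.11 ± 0.38 (adjusted p = 0.927). The difference between these 2 differences was not tested.

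Dbt (1449118_at), the E2 core, was lowest under TNF. Its control levels were 9.95, 9.90 and 9.81, those after 24 h of Dex 10.37, 10.32 and 10.07, and those after 24 h of TNF 9.23, 9.48 and 8.14. After 6 d of TNF they were 9.72, 8.28 and 9.26. All 6 late TNF arrays were below control, with TNF 24 h replicate 3 and TNF 6 d replicate 2 the lowest. The change was -0.94 ± 0.32 at 24 h (adjusted p = 0.0886) and -0.80 ± 0.32 at 6 d (adjusted p = 0.0938). The first was called without TNF 6 d replicate 2 (adjusted p = 0.00573), and the second became -0.40 ± 0.27 (adjusted p = 0.334). Between the agents, Dbt was 2.47-fold higher under Dex at 24 h (1.30 ± 0.32, adjusted p = 0.00915). That call was lost without TNF 24 h replicate 3 (0.90, adjusted p = 0.0693), as was that of Bckdha (0.84, adjusted p = 0.0515).

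Bckdk (1460644_at), the kinase that inactivates the complex, was not called against control in any comparison with all arrays. Its control levels were 9.50, 9.52 and 9.82, and those at 24 h of TNF were 9.39, 9.47 and 8.79. Replicate 3 of TNF was low, and the other 2 TNF arrays lay close below the lowest control array. The change was -0.40 ± 0.18 (adjusted p = 0.216, and 0.0495 without TNF 6 d replicate 2). A second, dimmer probe set of Bckdk gave -0.24.

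Ivd and Mccc1, the leucine enzymes of the set, fell under TNF, and without the outlying array both also fell under Dex by 6 d. Mccc2 and Auh, other genes of the leucine pathway described below, were not called at 6 d of Dex in either fit. Ivd (1418238_at), isovaleryl-CoA dehydrogenase, had levels of 11.71, 11.76 and 11.86 in control. They were 10.63, 10.61 and 10.39 after 24 h of TNF and 10.68, 10.44 and 10.68 after 6 d. After Dex they were 11.51, 11.51 and 11.67 at 24 h and 11.43, 11.13 and 11.29 at 6 d. No late array of either agent reached the lowest control array. Ivd fell 2.34-fold at 24 h of TNF, by 1.23 ± 0.14 (adjusted p = 4.11e-06), and by 1.17 ± 0.14 at 6 d (adjusted p = 2.31e-05; -1.10 ± 0.11 without the outlying array). Its call at 24 h held in all 16 alternatives tried, with changes from -1.27 to -1.13. A second probe set of Ivd gave -1.10 at 24 h and -1.91 at 6 d, the latter -0.86 without the outlying array.

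Under Dex, Ivd fell by 0.49 ± 0.14 at 6 d (adjusted p = 0.0289), the only member called in that comparison with all arrays. This call was lost without control replicate 1, 2 or 3 (adjusted p = 0.0632, 0.0839 and 0.108) and without Dex 6 d replicate 2 or 3 (0.140 and 0.0808). It was also lost with the mean of both probe sets (0.328) and with median centring (0.0883). It was firmer without TNF 6 d replicate 2 (adjusted p = 0.00115).

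Mccc1 (1417227_at), the biotin-carrying subunit of methylcrotonyl-CoA carboxylase, which acts directly after Ivd, moved in the same order. Its levels were 12.59, 12.53 and 12.66 in control, 12.10, 12.13 and 12.28 after 24 h of Dex, and 11.86, 11.88 and 11.88 after 6 d of Dex. After TNF they were 11.60, 11.60 and 11.44 at 24 h and 11.59, 9.82 and 11.57 at 6 d. The groups ran from control through 24 h and 6 d of Dex down to TNF without overlap. Mccc1 fell 2.07-fold at 24 h of TNF, by 1.05 ± 0.30 (adjusted p = 0.0322), and by 1.60 ± 0.30 at 6 d (adjusted p = 0.00171). Without TNF 6 d replicate 2 these were -1.05 ± 0.08 (adjusted p = 3.59e-09) and -1.02 ± 0.09 (adjusted p = 8.70e-08), where the left-out array stood at 9.82.

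With that array in the fit, the call of Mccc1 at 24 h of TNF was lost without any 1 of the 6 arrays compared (adjusted p from 0.0689 to 0.118, each of control replicates 1 to 3 and TNF 24 h replicates 1 to 3). Under Dex, Mccc1 changes were -0.42 ± 0.30 at 24 h (adjusted p = 0.806) and -0.72 ± 0.30 at 6 d (adjusted p = 0.188). Both were called without the outlying array, at 0.000862 and 9.79e-07. A second probe set of Mccc1 gave -0.87 at 24 h of TNF and -0.45 at 6 d of Dex.

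The valine enzyme Aldh6a1 fell under TNF and lay above control under Dex. Aldh6a1 (1448104_at), methylmalonate semialdehyde dehydrogenase, had levels of 12.86, 12.83 and 13.00 in control, 13.17, 13.25 and 13.09 after 24 h of Dex, and 13.52, 13.47 and 13.33 after 6 d of Dex. After TNF they were 12.11, 12.37 and 11.31 at 24 h and 12.36, 11.29 and 12.17 at 6 d. The late Dex arrays were all above and the late TNF arrays all below control, and control, Dex 24 h and Dex 6 d did not overlap one another. Aldh6a1 fell by 0.96 ± 0.24 at 24 h of TNF (adjusted p = 0.0138), a 1.95-fold decrease, and by 0.96 ± 0.24 at 6 d (adjusted p = 0.0126; -0.63 ± 0.19 and 0.0203 without the outlying array). The call at 24 h was lost without TNF 24 h replicate 3 (-0.65, adjusted p = 0.102) or control replicate 3 (-0.91, adjusted p = 0.0594), and the call at 6 d without control replicate 3 (adjusted p = 0.0507). The change at 6 d of Dex, 0.55 ± 0.24, was called only without the outlying array (adjusted p = 0.0217, against 0.225).

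Pccb (1450969_at), the beta subunit of propionyl-CoA carboxylase, fell under TNF and was not called under Dex. Its levels were 9.84, 9.89 and 10.43 in control, of which replicate 3 stood high. They were 9.22, 9.28 and 8.78 after 24 h of TNF and 9.04, 8.39 and 8.86 after 6 d, all below every control array. After 24 h of Dex they were 10.04, 9.99 and 10.14, within the control range, and after 6 d of Dex 9.84, 9.65 and 9.70. All 3 at 6 d lay below every control array, replicate 1 (9.8412) just below control replicate 1 (9.8418). The change at 6 d of Dex was -0.33 ± 0.20 (adjusted p = 0.476, and 0.141 without the outlying array). Pccb fell by 0.96 ± 0.20 at 24 h of TNF (adjusted p = 0.00346) and by 1.30 ± 0.20 at 6 d (adjusted p = 0.000397; -1.11 ± 0.17 without the outlying array). Its call at 24 h held in all 16 alternatives, with changes from -1.07 to -0.68.

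**Figure D2:**
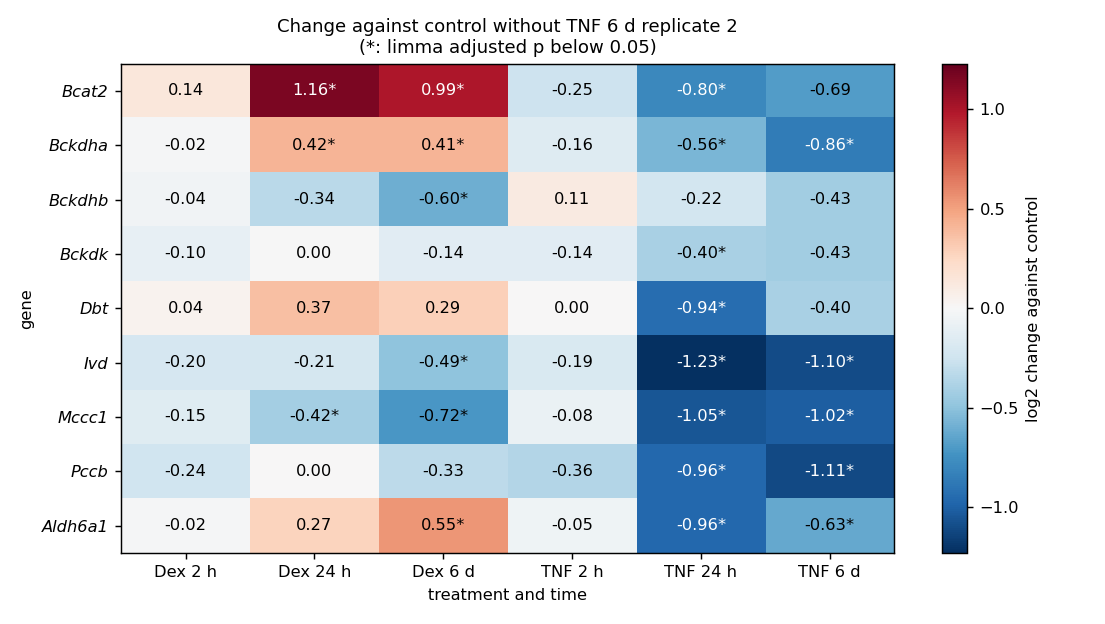
Change of the 9 tested genes against control, as log2 differences in a fit without TNF 6 d replicate 2, with genes in rows and the 6 treated groups in columns. Red is higher and blue lower than control, and a star marks an adjusted p below 0.05 in limma. The 2 h columns hold no star. At 24 h of TNF every gene but Bckdhb has one, and under Dex at 6 d 3 genes are higher (Bcat2, Bckdha, Aldh6a1) and 3 lower (Bckdhb, Ivd, Mccc1).

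Promoter sequences are shown for 5 genes: the 4 that fell at 24 h of TNF with all arrays (Ivd, Mccc1, Aldh6a1 and Pccb), and Bckdha, which was called there only without the outlying array. They were taken from RefSeq windows of the GRCm38.p6 build, and 9 of the 10 genes had an entry. Each is the stretch directly ahead of the annotated gene, 5' to 3' on the gene's strand: chr2:118861744-118861958 (+) for Ivd, chr3:36000695-36000928 (-) for Mccc1, chr12:84451025-84451274 (-) for Aldh6a1, chr9:101034941-101035134 (-) for Pccb and chr7:25658783-25659011 (-) for Bckdha. Capitals mark the CCAAT box, a short core promoter motif bound by the factor NF-Y, on either strand, so that it reads CCAAT or ATTGG. This motif was picked after the sequences had been read.
Ivd: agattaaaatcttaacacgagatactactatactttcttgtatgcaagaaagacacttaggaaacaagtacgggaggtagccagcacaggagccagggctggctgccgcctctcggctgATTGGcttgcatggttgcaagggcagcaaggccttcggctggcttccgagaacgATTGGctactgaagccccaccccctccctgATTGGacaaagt
Mccc1: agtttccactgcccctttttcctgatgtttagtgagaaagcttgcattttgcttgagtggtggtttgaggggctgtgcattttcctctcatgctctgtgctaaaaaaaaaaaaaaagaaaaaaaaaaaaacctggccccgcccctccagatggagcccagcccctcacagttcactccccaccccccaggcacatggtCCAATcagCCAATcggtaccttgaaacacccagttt
Aldh6a1: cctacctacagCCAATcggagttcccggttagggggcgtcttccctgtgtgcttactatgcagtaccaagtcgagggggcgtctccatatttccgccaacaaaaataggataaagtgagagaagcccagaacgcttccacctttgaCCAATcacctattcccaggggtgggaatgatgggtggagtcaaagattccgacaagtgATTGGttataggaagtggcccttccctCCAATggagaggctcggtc
Pccb: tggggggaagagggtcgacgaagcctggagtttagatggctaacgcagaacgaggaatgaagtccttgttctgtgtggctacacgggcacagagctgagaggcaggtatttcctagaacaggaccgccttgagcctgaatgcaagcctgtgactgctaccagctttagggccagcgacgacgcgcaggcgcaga
Bckdha: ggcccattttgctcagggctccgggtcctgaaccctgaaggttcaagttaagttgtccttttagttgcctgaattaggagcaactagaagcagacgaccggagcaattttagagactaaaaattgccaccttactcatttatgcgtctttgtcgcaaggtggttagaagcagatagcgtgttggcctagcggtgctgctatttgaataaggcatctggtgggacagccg

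In the 250 bases ahead of the start site, the window of Ivd held 4 CCAAT boxes, that of Aldh6a1 4 and that of Mccc1 3, some of them outside the stretch printed. Bckdhb had 2, Bckdk 1 and Bcat1 1. Those of Bcat2, Bckdha and Pccb held none, so of the 4 genes that fell at 24 h of TNF 3 had the box. Among 32851 windows of the same length over all genes, 33.8% held at least 1, 10.1% at least 2 and 2.79% at least 3. The GC box GGGCGG, on either strand in 32.7% of windows, occurred 3 times ahead of Bckdhb and 1 time ahead of Mccc1. Where a gene had a second window, it lay inside the annotated span. That of Aldh6a1 held 1 CCAAT box and those of Bcat1, Bcat2 and Bckdhb none. For Bcat2 the first window also lay inside the span, so the bases ahead of that annotated gene were not read. A CCAAT match and a GGGCGG match cannot be the same letters. A match is a description of the letters and says nothing of binding.

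Counted over the set, members were called against control at 24 h and 6 d and not at 2 h. At 2 h, 0 of the 9 tested genes were called under Dex or TNF, where limma called 2.48% and 3.82% of all genes, and 0 of 9 had an unadjusted p below 0.05 in either comparison. The count at 2 h was again 0 without TNF 6 d replicate 2, against 7.12% under Dex and 10.7% under TNF. With 9 genes, a count of 0 is near these shares and does not set the members apart at 2 h. By 24 h of TNF, 4 of 9 fell (Ivd, Mccc1, Pccb and Aldh6a1) and 0 rose, against 3.27% of all genes called lower and 5.41% called higher. Without TNF 6 d replicate 2, 8 of 9 fell, against 12.4% of all genes. The count was 2 without control replicate 3 and 2 without TNF 24 h replicate 3, against 2.32% and 2.39%. At 6 d of TNF, 5 of 9 fell, the same 4 and Bckdha, against 10.7% of all genes called lower, and 0 rose, against 4.52%. The same 5 fell without the outlying array, against 9.93%. The count was 9 without TNF 6 d replicate 1, where the outlying array is 1 of 2, against 30.9% of all genes called lower.

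The median change of the 9 genes was -0.94 at 24 h of TNF, where that of all genes tested was -0.03. At 6 d it was -1.11, or -0.69 without the outlying array, where that of all genes was -0.23 or -0.05. By single arrays, 8 of 9 genes lay wholly below control at 24 h of TNF and 9 of 9 at 6 d, against 18.9% and 23.5% of all genes.

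Under Dex the set did not move together. At 24 h 1 of 9 rose (Bcat2), against 2.06% of all genes called higher, and 0 fell, against 2.11%. At 6 d 1 of 9 fell (Ivd), against 5.08% called lower, and 0 rose, against 3.22%. Without the outlying array, 2 rose and 1 fell at 24 h, against 6.39% and 6.79% of all genes, and 3 rose and 3 fell at 6 d, against 10.4% and 13.5%. The median change of the 9 genes was 0.00 at 24 h and -0.14 at 6 d. By single arrays, 3 of 9 lay wholly below and 4 wholly above control at 24 h, against 16.3% and 16.8% of all genes. At 6 d these counts were 4 and 3, against 20.7% and 16.5%. All comparisons with control share the same 3 control arrays.

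The 2 agents were compared with each other at the same times, in the same fit. These differences do not use the control levels, but the control arrays still enter the estimate of the spread. At 2 h, 0 of 9 genes differed, where 5.97% of all genes were called, and 0 of 9 had an unadjusted p below 0.05. At 24 h, 6 of 9 were higher under Dex than under TNF (Bcat2, Bckdha, Dbt, Ivd, Pccb and Aldh6a1) and 0 lower, against 5.89% of all genes called higher and 7.56% called lower. Without TNF 6 d replicate 2, 8 of 9 were higher, against 16.9%, all but Bckdhb. Bcat2 had the largest difference, 1.96, followed by Dbt at 1.30 and Aldh6a1 at 1.24 ± 0.24 (adjusted p = 0.00125). The calls of Bcat2, Ivd, Pccb and Aldh6a1 held in all 16 alternatives. At 6 d, 7 of 9 were higher under Dex and 0 lower, against 15.9% and 7.81% of all genes, and 6 of 9 were higher without the outlying array, against 14.4%, since Dbt was no longer called (0.69 ± 0.27, adjusted p = 0.0561). Dbt was also not called without Dex 6 d replicate 1 or 2 (adjusted p = 0.0698 and 0.0734), nor Mccc1 without Dex 6 d replicate 1, 2 or 3 (0.0872, 0.0916 and 0.0900). At 6 d Aldh6a1 was 2.83-fold and Bckdha 3.18-fold higher under Dex, or 2.26-fold and 2.43-fold without the outlying array.

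**Figure D3:**
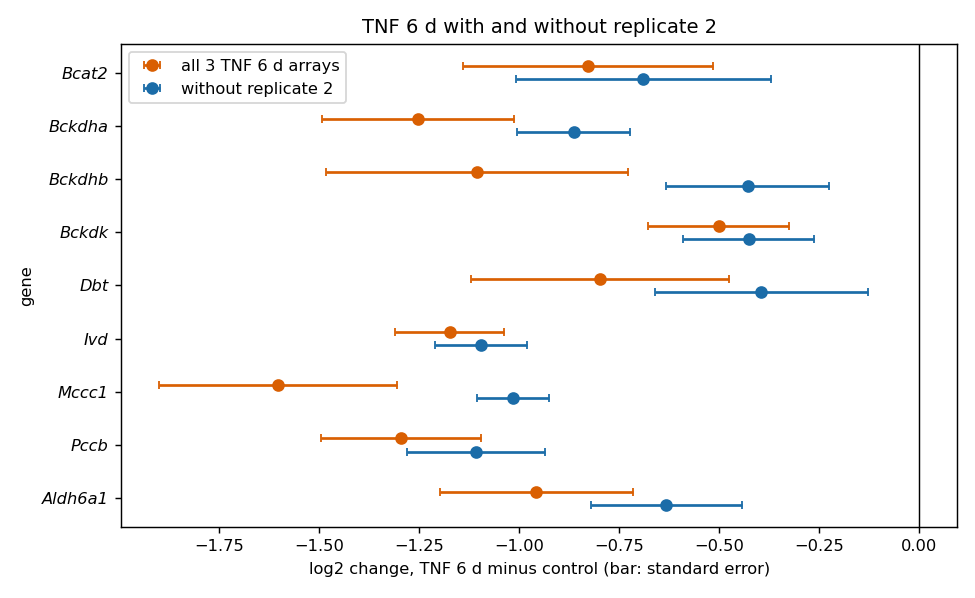
Change of the 9 tested genes at 6 d of TNF against control, as log2 differences on the horizontal axis, with all 3 TNF 6 d arrays (orange) and without replicate 2 (blue), each in its own fit. Points are differences of group means and bars their standard errors. The change of Mccc1 goes from -1.60 to -1.02 and that of Bckdhb from -1.11 to -0.43, while that of Ivd goes from -1.17 to -1.10.

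With all arrays, the only members called between neighbouring times were in the step from 2 h to 24 h of TNF. From 2 h to 24 h of TNF, 2 of 9 genes fell, Ivd by 1.04 ± 0.14 (adjusted p = 5.70e-05) and Aldh6a1 by 0.91 ± 0.24 (adjusted p = 0.0286), against 2.69% of all genes. Without TNF 6 d replicate 2, 6 of 9 fell, against 10.1%. The call of Aldh6a1 was lost without TNF 2 h replicate 1, 2 or 3 (adjusted p = 0.0735, 0.114 and 0.0624) or TNF 24 h replicate 3 (-0.60, adjusted p = 0.187). From 24 h to 6 d of TNF, 0 of 9 were called with or without that array, against 5.99% and 9.2% of all genes, and 2 of 9 had an unadjusted p below 0.05 with all arrays. Ivd differed by 0.06 ± 0.14 between these times.

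Within Dex, 0 of 9 were called from 2 h to 24 h (3.62% of all genes) or from 24 h to 6 d (0.683%), and 1 and 0 had an unadjusted p below 0.05. Without the outlying array, Bcat2 (1.02) and Bckdha (0.44) rose and Mccc1 fell by 0.27 from 2 h to 24 h, against 13.5% of all genes called. Mccc1 alone was called from 24 h to 6 d, with a change of -0.30, against 4.5%.

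Other genes of the pathway were taken from a list of 19 that holds the remaining enzymes, the transporter Slc25a44, the phosphatase Ppm1k and the regulator Klf15, and 18 of them were tested. At 24 h of TNF 2 of 18 fell and 0 rose, against 3.27% and 5.41% of all genes. Without the outlying array 14 fell, against 12.4%. The median change of the 18 genes was -0.70. At 6 d of TNF 12 fell, or 11 without that array, against 10.7% and 9.93% of all genes. The median at 6 d was -1.14, or -0.64 without that array. Under Dex 1 of 18 fell at 24 h and at 6 d (Mmab), against 2.11% and 5.08% of all genes. At these times 0 rose, against 2.06% and 3.22%. Without the outlying array 1 rose at 24 h (Hsd17b10) and 3 at 6 d (Hsd17b10, Slc25a44 and Ppm1k), against 6.39% and 10.4%. In that fit 1 fell at each time, against 6.79% and 13.5%. Between the agents at 6 d, 16 of 18 were higher under Dex and 1 lower, against 15.9% and 7.81% of all genes. Without the outlying array these counts were 15 and 1, against 14.4% and 15.8%.

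With all arrays, the 6 largest called changes of this list against control were at 6 d of TNF, the group of the outlying array. Without that array the largest were Mmab at 6 d of Dex (-1.30), Dld at 24 h of TNF (-1.10) and Klf15 at 2 h of TNF (-1.06). Auh, a hydratase of the leucine pathway, fell by 1.75 (-0.86 without the outlying array), and Mccc2, the partner subunit of Mccc1, fell by 1.46 (-0.80). Dld, the E3 component that the complex shares with other dehydrogenases, fell by 1.53, but was not called without that array (-0.58, adjusted p = 0.0742). Hibch and Acad8, enzymes of valine breakdown, fell by 1.42 and 1.38 (-0.79 and -0.59), and Acadsb, which serves isoleucine, by 1.34 (-0.94). Without the outlying array, adjusted p was at most 0.00390 for these genes other than Dld. At 6 d of Dex, the changes of Mccc2 and Auh in that fit were -0.17 and -0.05 (adjusted p = 0.447 and 0.854).

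The opponents Bckdk and Ppm1k were set side by side, since Ppm1k is the phosphatase that switches the dehydrogenase complex on. Ppm1k levels were 8.68, 8.96 and 8.84 in control, 9.24, 9.45 and 9.24 at 6 d of Dex, and 8.17, 7.30 and 8.06 at 6 d of TNF, with no overlap. Ppm1k fell by 0.98 ± 0.20 at 6 d of TNF (adjusted p = 0.00367; -0.71 without the outlying array) and was 0.93 ± 0.20 higher under Dex than TNF at 24 h (adjusted p = 0.00329). For Bckdk that difference at 24 h was 0.40 ± 0.18 (adjusted p = 0.172), called without the outlying array (adjusted p = 0.0427).

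Klf15 was called between the agents at 2 h, 24 h and 6 d. It is a transcription factor known as a glucocorticoid target that acts on amino acid breakdown genes. Its part in the enzyme changes was not tested. Its levels at 2 h were 11.53, 11.24 and 11.13 under Dex and 9.59, 9.54 and 9.38 under TNF, around 10.72, 10.93 and 10.06 in control. Every Dex array was above and every TNF array below the control arrays. Among all genes, 12.4% lay wholly above control at 2 h of Dex and 12.5% wholly below at 2 h of TNF. Klf15 was higher under Dex by 1.79 ± 0.41 at 2 h (adjusted p = 0.00897), 1.49 ± 0.41 at 24 h (adjusted p = 0.0189) and 1.61 ± 0.41 at 6 d (adjusted p = 0.00935). Against control it was not called with all arrays, with 0.73 at 2 h of Dex and -1.06 at 2 h of TNF (adjusted p = 0.860 and 0.259). Without the outlying array it was called lower at 2 h and 24 h of TNF (adjusted p = 0.0119 and 0.0217), and its difference between the agents at 6 d was 1.002 ± 0.30 (adjusted p = 0.0160). Slc25a44, the mitochondrial branched-chain amino acid carrier, was 0.66 ± 0.20 higher under Dex than TNF at 6 d (adjusted p = 0.0237).

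2 genes of the list are named after their values were seen. Mmab, which makes the cobalamin cofactor used downstream of Pccb, fell under Dex, by 0.61 ± 0.17 at 24 h (adjusted p = 0.0491) and 1.30 ± 0.17 at 6 d (adjusted p = 3.83e-05), and was the 1 gene of the 18 called lower under Dex than under TNF at 6 d. Hsd17b10, a dehydrogenase of the isoleucine pathway, was 0.99 ± 0.42 higher at 24 h of Dex (adjusted p = 0.315, and 8.09e-07 without the outlying array).

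**Figure D4:**
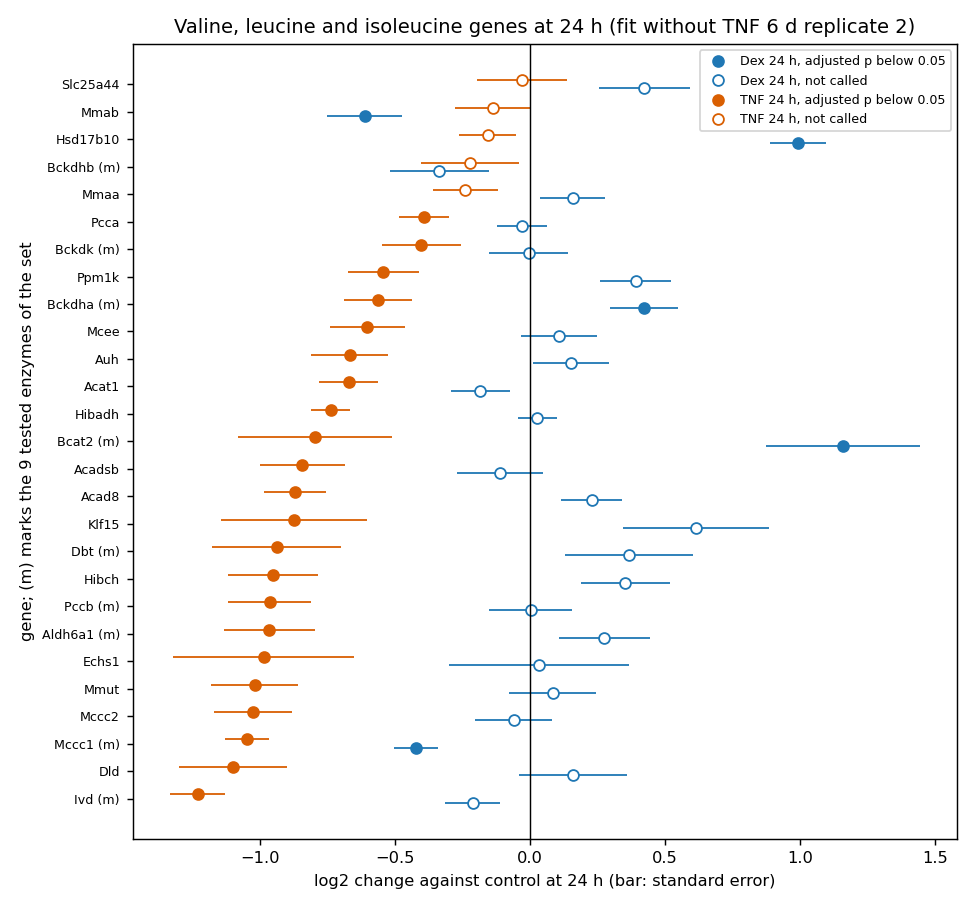
Change at 24 h against control of the 9 tested enzymes, marked (m), and 18 other genes of the pathway, as log2 differences on the horizontal axis in a fit without TNF 6 d replicate 2. Blue is Dex and orange TNF, filled points have an adjusted p below 0.05, and bars are standard errors. Every orange point lies below 0 and 22 of the 27 are filled, against 12.4% of all genes called lower. The blue points lie on both sides of 0.

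Neighbouring mitochondrial pathways were lower under TNF too. Of 16 tested genes of the citric acid cycle, 5 fell at 24 h of TNF, or 14 without the outlying array, with a median change of -0.57. Of 18 tested genes of fatty acid oxidation, 7 fell, or 14, with a median of -0.61. Among all genes, 3.27% were called lower in that comparison, or 12.4% without the outlying array. The median of the 9 branched-chain enzymes was -0.94 in the same comparison. At 6 d of TNF, 11 of the 16 and 16 of the 18 fell, against 10.7% of all genes. Without the outlying array 11 and 14 fell, against 9.93%. The medians at 6 d were -0.86 and -0.93, or -0.49 and -0.58 without that array. That of the 9 enzymes was -1.11, or -0.69. In the fit without that array, 1 gene of each list rose at 24 h and at 6 d, against 13.2% and 10.5% of all genes. Whether these medians differ was not tested.

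Markers of cell type moved with the result. Of the 10 adipocyte markers, 5 fell at 24 h of TNF and 6 at 6 d, against 3.27% and 10.7% of all genes. Without the outlying array 9 and 6 fell, against 12.4% and 9.93%. Under Dex 0 of these markers fell at 24 h and 2 at 6 d, against 2.11% and 5.08%. Without that array 1 and 3 fell, against 6.79% and 13.5%. At 24 h of TNF the mean level of the adipocyte markers was 11.98 to 12.49. At 6 d of TNF it was 12.45 to 12.50 without the outlying array. It was 13.14 to 13.18 in control and 12.87 to 12.98 at 6 d of Dex. Adipoq, a fat cell hormone gene, had a change of -0.25 at 24 h of TNF (adjusted p = 0.227), called without the outlying array (adjusted p = 0.00177). That of Fabp4, a fat cell lipid carrier, was -0.07 and not called in either fit. In control these genes stood at 14.88 and 14.93, near the highest deposited value of 15.06. Over the 10 adipocyte markers the changes at 24 h of TNF ran from -2.64 to -0.07, with a median of -0.68. Of 8 tested preadipocyte and fibroblast markers, 2 fell at 24 h and 5 at 6 d of Dex, against 2.11% and 5.08% of all genes. Without the outlying array 5 and 6 fell, against 6.79% and 13.5%. Under TNF 2 of these markers rose at 24 h and 3 at 6 d, against 5.41% and 4.52% called higher. Without that array 2 and 4 rose, against 13.2% and 10.5%, and 1 fell at 24 h, against 12.4%. Over the 9 on the array, the mean level was 9.22 to 9.49 at 6 d of Dex and 10.63 to 11.10 at 6 d of TNF. The lowest at 6 d of TNF without the outlying array was 10.87. The part of these markers in the enzyme results was not tested.

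TNF 24 h replicate 3 was low for most of the set. The mean level over the 10 genes was 9.25 on it, against 9.79 and 9.90 on the other TNF 24 h arrays and 10.33 to 10.45 in control. Its 3' minus 5' difference was 0.683, against 0.110 and 0.163, and its part in the TNF 24 h result was not tested. Dex 6 d replicate 2 and TNF 2 h replicate 2 had like differences of 0.777 and 0.736. Without both TNF 24 h replicate 3 and TNF 6 d replicate 2, 6 of 9 genes fell at 24 h of TNF, against 11.7% of all genes called lower.

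Over the 20 arrays other than TNF 6 d replicate 2, the members formed no single block. Ivd and Mccc1 had a Pearson r of 0.92, Dbt and Aldh6a1 0.94 and Bcat2 and Bckdha 0.91. Bcat2 and Bckdhb had -0.17, and Bckdha and Bckdhb 0.00. These values describe 20 arrays that share groups and carry no p. The tested genes most like Bcat2 were Sult1a1 (0.95), Oxnad1 (0.94) and Gde1 (0.94). Those most like Aldh6a1 were Pithd1 (0.97), Kyat3 (0.96) and Acadm (0.96). Those most like the mean of the 8 members other than Bcat1 and Bckdk were Psat1 (0.97), Taldo1 (0.97) and Ndufs3 (0.97). Those most like the dim Bcat1 were Caly (0.87), Faim2 (0.86) and Srpk3 (0.82).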

How the data were processed

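Biotin-labelled cRNA from total RNA of 21 samples was hybridised to Affymetrix arrays. The authors normalised the arrays by RMA, per the submitters' processing notes, and the version is not given in the sources used here. Their range of 2.70 to 15.06 is that of log2 expression, the scale RMA gives, so the authors' deposited values were taken as log2 and not transformed. Of 45101 probe sets, 34958 list 1 gene, 932 several and 9211 none, and only the first were used. Symbols come from the platform annotation, updated through the Entrez identifier.

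Of 18194 genes, 12156 were tested and 6038 were too dim. All arrays entered 1 fit (limma 3.58.1 in R 4.3.3) that estimates 1 mean for each group, with empirical Bayes moderation and a variance trend, 14 residual degrees of freedom (13 without TNF 6 d replicate 2) and a prior of 3.96. The 13 comparisons set the 6 treated groups against control, the 2 agents against each other at matched times, and successive times of an agent against one another. An exact permutation test of 3 against 3 cannot go below a p of 0.1, so limma carries the calls. The scripts were tested on simulated data. No 2 arrays were duplicates.

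The members, gene lists and tests were chosen with earlier results of these data known. The lists hold adipocyte, preadipocyte and fibroblast, and macrophage markers, other genes of the pathway, citric acid cycle and fatty acid oxidation. Named besides the members are up to 6 other pathway genes called against control, by largest change, with Klf15, Ppm1k and Slc25a44 in any case. For likeness, the 3 tested genes with the highest Pearson r were taken. To check whether shared replicate numbers pair arrays, deviations from the group means were correlated across genes. Every same-number r passed 0.1 in 2 of 13 comparisons. These were 24 h of Dex against control, with r of 0.233 to 0.447, and the 2 agents at 24 h, with 0.207 to 0.270. The labels do not say what a number marks, so this pairing comes from the data alone.

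Alternatives were no filter, the mean of a gene's probe sets, median centring, quantile normalisation, no trend, only the 2 groups compared, array weights, a replicate block, and leaving out single arrays. Array weights used limma's gene-by-gene estimate because the default did not converge. Leaving out both TNF 6 d replicate 2 and TNF 24 h replicate 3 was chosen after seeing the data.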

Additional observations from a re-analysis of the deposited data

Results flagged for a closer look

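2 genes differed between 2 h and 24 h of the same agent, tested as the difference itself with limma. From 2 h to 24 h of TNF, Ivd changed by -1.04 (adjusted p = 5.70e-05), with all 3 arrays at 24 h below all 3 at 2 h, and was called in 16 of 16 alternatives. Aldh6a1 changed by -0.91 (adjusted p = 0.0286), again without overlap, and was called in 11 of 16. The call of Aldh6a1 was lost without any of the TNF 2 h arrays, without TNF 24 h replicate 3 (adjusted p = 0.187) and with median centring (0.0813).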

How the results depend on the processing

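Over the members and comparisons, 1579 of the alternative values kept their direction and side of the threshold, 140 became called and 52 lost the call, with the sign kept. Another 74 turned sign, none of them called in either fit, and at 2 h of either agent no member was called in any alternative run. With array weights, the number of members called went from 1 to 7 at 24 h of Dex, 1 to 6 at 6 d of Dex, 4 to 7 at 24 h of TNF and 5 to 9 at 6 d of TNF. Between times it went from 0 to 7 and 0 to 4 within Dex and from 2 to 6 and 0 to 3 within TNF. With only the 2 groups compared, it went from 1 to 6 at 24 h of Dex, 1 to 6 at 6 d of Dex, 0 to 6 from 2 h to 24 h of Dex, 5 to 0 at 6 d of TNF and 7 to 0 for Dex against TNF at 6 d, both of which hold TNF 6 d replicate 2. For Dex 24 h, no filter, median centring and quantile normalisation each gave 0. For Dex 6 d, median centring gave 0, and quantile normalisation and the mean of probe sets 2 each. From 2 h to 24 h of TNF, median centring gave 1 and quantile normalisation 5. The cause was not tested.

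A replicate block gave 2 members at 6 d of Dex and 1 from 2 h to 24 h of Dex. In the 2 comparisons where the numbers may pair the samples, the block gave 1 and 6 members called, as without it, and it changed no other count of members. Leaving out arrays gave 0 to 5 members at 24 h of Dex, 0 to 6 at 6 d of Dex, 2 to 8 at 24 h of TNF, 4 to 9 at 6 d of TNF, 4 to 8 for Dex against TNF at 24 h and 5 to 7 at 6 d. Between times it gave 0 to 5 and 0 to 2 within Dex, and 1 to 6 and 0 to 3 within TNF.

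Counts over all genes were highest with array weights in all comparisons but TNF 24 h to 6 d. With array weights they went at 2 h, 24 h and 6 d of Dex from 301 to 2013, 508 to 4856 and 1009 to 4785, and of TNF from 464 to 3066, 1056 to 4902 and 1851 to 5124. With only the 2 groups compared they dropped to 29 at 6 d of TNF, to 221 from 2881 for Dex against TNF at 6 d and to 2 from 728 for TNF 24 h to 6 d. Quantile normalisation moved the share of lower calls from TNF 24 h to 6 d from 79.8% to 67.4%. At 6 d of TNF against control it moved that share from 70.3% to 60.3%, the median change of all genes from -0.23 to -0.09, and that of the members from -1.11 to -0.83. With 3 arrays a group and TNF 6 d replicate 2 in the fit, small changes are at the limit of what can be called.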
